A study of Mus musculus with 4 samples.

Results

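The genes described here are 10 regulators of the step from G1 into S phase of the cell cycle, among 27514 genes listed in all 4 single-cell libraries of the series. They were taken by symbol from the gene lists of the libraries: the D cyclins Ccnd1, Ccnd2 and Ccnd3, their kinases Cdk4 and Cdk6, the kinase inhibitor Cdkn1b (p27), the pocket protein Rb1, the E cyclins Ccne1 and Ccne2, and the phosphatase Cdc25a. All 10 were present in every library, and all 10 passed the filter on low counts in the main fits. In Kit+ cells that were in no other class, 9 of the 10 passed it for the comparison of treated with untreated mice. The study sorted undifferentiated spermatogonia (Aundiff), the germ cell pool that holds the stem cells of the testis, as E-cadherin+ CD49f+ c-KIT- cells from C57BL/6J males aged 6-8 weeks. Untreated mice (CTRL) were compared with mice killed on day 10 after a single busulfan dose of 10 mg/kg (BU), which alkylates DNA and depletes spermatogonia. There were 2 experiments with a CTRL and a BU library apiece, each library was made from cells pooled from 3 mice, so that n = 2 libraries per group, and differences between single mice cannot be seen. No allele was altered in either group.

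D cyclins are made in response to growth signals and bind CDK4 or CDK6. The active kinases phosphorylate RB1, which then releases E2F transcription factors, and E2F factors drive the genes of S phase, the E cyclins among them. Cyclin E activates CDK2, CDC25A removes inhibitory phosphates from that kinase, and p27 holds cyclin E and CDK2 in check. In cultured spermatogonial stem cells, cyclin D2 is known to act downstream of GDNF.

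The analysis kept the 7493 cells that had more than 1000 detected genes and less than 20% of their UMIs from mitochondrial genes. A cell was called Gfra1+, Sox3+ or Kit+ when the natural log of 1 plus 100000 times the share of that gene in its UMIs exceeded 2. Gfra1 encodes a GDNF receptor of stem spermatogonia, Sox3 marks committed progenitors, and Kit marks the start of differentiation. A cell could be in more than 1 class, as 686 cells were. Gfra1+ cells numbered 585 and 214 in CTRL 1 and 2 and 865 and 528 in BU 1 and 2, Sox3+ cells 1470, 646, 473 and 264, and Kit+ cells 36, 37, 322 and 156. Pairs of values are given in that order throughout, experiment 1 before experiment 2. Kit+ cells are therefore few in CTRL, and they are cells that the c-KIT- gate let through. Levels are UMIs summed over the cells of a class in 1 library, in CPM (counts scaled to a common library total) after TMM scaling.

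The classes were set against marker lists, summed in CPM over the markers of each list. The stem, progenitor and differentiating lists include Gfra1, Sox3 and Kit. The sum of a class on its own list is therefore raised in part by how its cells were chosen. The 8 stem markers reached 597 and 646 in CTRL and 839 and 972 in BU in Gfra1+ cells. In Sox3+ cells they reached 97.2 and 111.5 in CTRL and 200 and 299.5 in BU. The stem markers of Sox3+ cells were thus higher in BU, and the part of this in the Ccnd2 level of Sox3+ cells was not tested. The 5 differentiating markers reached 713 to 1175 in Kit+ cells and 219 to 438 in Gfra1+ cells. In Sox3+ cells they reached 367 to 782, which overlaps the Kit+ range, though within each library the Kit+ value was the higher. The 6 progenitor markers of Sox3+ cells stood at 706 and 591 in CTRL but at 268 and 231 in BU, so their summed level was lower in the Sox3+ cells of BU.

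Several facts of the libraries touch the results. Median UMIs per cell were 8066 and 9858 in experiment 1 and 30931 and 34177 in experiment 2, for which the labels give another kit version. A single UMI passed the class level in 96.9% and 90.1% of cells of CTRL 1 and BU 1 but in 17.0% and 13.8% of cells of CTRL 2 and BU 2. CTRL 2 and BU 2 shared 70 cell barcodes (6.25% of the cells of CTRL 2), and CTRL 1 and BU 1 shared 7. The Kit+ cells of CTRL 2 stood apart, with the 12 somatic markers at 1388 CPM against 20.6 to 45.3 in the other Kit+ sums, and the 5 spermatid markers at 7490 CPM against 323 to 756. Cells with Top2a or Mki67 above the class level made up 44.3% and 54.2% of Gfra1+ cells in CTRL and 79.1% and 73.3% in BU. Among Sox3+ cells they made up 36.7% and 49.7% in CTRL and 84.4% and 80.7% in BU. Among Kit+ cells they made up 41.7% and 64.9% in CTRL and 94.4% and 92.9% in BU. The part of these values in the results below was not tested, other than by the alternatives named beside them.

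Positions are those of GRCm38 in GENCODE M21, and each member encodes a protein. Ccnd1 (chr7:144929931-144939925) and Ccne1 (chr7:38097984-38107534) are on chromosome 7, Ccnd2 (chr6:127125162-127152193) and Cdkn1b (chr6:134920401-134925513) on chromosome 6. Ccnd3 is at chr17:47505051-47599691, Ccne2 at chr4:11191351-11204779, Cdc25a at chr9:109875579-109893895, Cdk4 at chr10:127063534-127067920, Cdk6 at chr5:3341485-3531008 and Rb1 at chr14:73183673-73325822. Promoter windows of RefSeq (GRCm38.p6), the 250 bases before a start, were matched for 6 members. They were searched on both strands for the E2F words TTTCCCGC, TTTGGCGC and TTTCGCGC, which 1.53% of all 32851 windows hold, and for the E-box CACGTG, which MYC proteins bind and which 6.02% hold. The E-box was added to the search after the windows had been seen. Of the 7 windows of members, 1 held an E2F word and 2 held an E-box. Also searched were the word TTTGAA (CHR), which 16.0% of all windows hold, and the GC box GGGCGG, which 32.7% hold. No window of a member held the former, and all but that of Cdk6 held the latter. The sequences of Cdc25a, Cdk4 and Ccne1 are shown because Cdc25a holds the 1 E2F word among the members' windows, Cdk4 holds the most E-boxes, and Ccne1, whose level varied with that of Cdc25a, holds neither. They run 5' to 3' on the gene's strand, only bases before the first exon are printed, and capitals mark an E2F word or an E-box.
Cdc25a, chr9:109875329-109875578, + strand: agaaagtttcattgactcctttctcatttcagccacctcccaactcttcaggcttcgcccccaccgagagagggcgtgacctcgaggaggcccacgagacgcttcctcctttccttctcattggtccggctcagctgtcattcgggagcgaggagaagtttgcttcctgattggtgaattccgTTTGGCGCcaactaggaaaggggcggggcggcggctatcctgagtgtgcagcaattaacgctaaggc
Cdk4, chr10:127063285-127063533, + strand: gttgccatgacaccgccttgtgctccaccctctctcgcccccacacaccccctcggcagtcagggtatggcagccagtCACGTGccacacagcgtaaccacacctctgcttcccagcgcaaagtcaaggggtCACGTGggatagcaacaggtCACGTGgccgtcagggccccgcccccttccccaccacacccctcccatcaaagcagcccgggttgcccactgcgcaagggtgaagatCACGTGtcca
Ccne1, chr7:38107535-38107740, - strand: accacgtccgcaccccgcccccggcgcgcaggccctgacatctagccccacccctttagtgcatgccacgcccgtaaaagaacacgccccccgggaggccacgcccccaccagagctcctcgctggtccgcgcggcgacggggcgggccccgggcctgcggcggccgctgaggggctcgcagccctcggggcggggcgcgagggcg
The window of Cdc25a holds 1 E2F word, starting 67 bases before the start of the gene. That of Cdk4 holds 4 E-boxes and that of Ccne1 holds neither an E2F word nor an E-box. These matches describe the letters of the windows and show no binding.

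Ccnd2 gave most of the D cyclin UMIs of Gfra1+ cells. Its level was 843 and 567 CPM in CTRL and 1338 and 926 CPM in BU, so both BU libraries lay above both CTRL libraries. In Sox3+ cells it was 314 and 204 CPM in CTRL and 481 and 406 CPM in BU. Within each library the Sox3+ level was between 0.359 and 0.439 of the Gfra1+ level. Over the 12 sums of class and library, with the library as a block, Ccnd2 was lower in Sox3+ than in Gfra1+ cells by a log2 fold change of -1.39 (SE 0.24, adjusted p = 0.00158). In this comparison 20.8% of the 14715 genes tested were called, 10.6% higher and 10.2% lower, and of the members 2 were higher and 1 was lower.

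Kit+ cells did not share 1 level of Ccnd2. The level was 770 CPM in CTRL 1, where 36 cells gave 258 UMIs, and 277 CPM in CTRL 2. It was 322 and 294 CPM in BU, so that the groups overlapped. With the cells marked as somatic or spermatid left out, the levels were 741 and 337 CPM in CTRL and 318 and 287 CPM in BU, which do not overlap. With cells of more than 1 class left out, 10 and 15 Kit+ cells remained in CTRL. Ccnd2 was then 769 and 98.4 CPM in CTRL, and the groups overlapped, with ratios of BU to CTRL of 0.335 and 1.88. Against Gfra1+ cells Ccnd2 was lower in Kit+ cells (log2 fold change -1.23, SE 0.26, adjusted p = 0.00344), a comparison that called 33.4% of genes, 15.7% higher and 17.7% lower, and 3 and 4 members. Against Sox3+ cells the difference was 0.16 (SE 0.25, adjusted p = 0.727).

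Ccnd1, the D cyclin that many growth factor pathways induce, separated CTRL from BU in all 3 classes. In Gfra1+ cells it was 77.8 and 112 CPM in CTRL and 156 and 194 CPM in BU. In Sox3+ cells it was 44.8 and 48.7 CPM in CTRL and 152 and 192 CPM in BU, and in no class did a BU library fall below a CTRL library. In Kit+ cells it was 35.8 CPM (12 UMIs) and 103 CPM in CTRL and 242 and 316 CPM in BU. The 2 BU libraries thus had their highest Ccnd1 in Kit+ cells, 1.55 and 1.63 times the Gfra1+ level, while in CTRL the Kit+ level was below the Gfra1+ level, with ratios of 0.460 and 0.925.

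Ccnd3 went the other way. It was 112 and 101 CPM in CTRL and 89.4 and 82.1 CPM in BU in Gfra1+ cells, and 133 and 123 CPM against 78.0 and 76.3 CPM in Sox3+ cells. In Kit+ cells it was 102 and 79.4 CPM in CTRL and 62.4 and 58.8 CPM in BU. Its range over the 12 sums, from 58.8 to 133 CPM, was narrower than that of Ccnd1 (35.8 to 316) or Ccnd2 (204 to 1338). The 5 spermatid markers were also lower in BU in Gfra1+ cells, at 1147 and 2408 CPM in CTRL and 494 and 1060 CPM in BU. In Sox3+ cells they were 892 and 1270 CPM in CTRL and 310 and 589 CPM in BU. In Kit+ cells the markers were 323 and 7490 CPM in CTRL and 415 and 756 CPM in BU. Between experiments the markers and Ccnd3 went opposite ways. In each class and group the markers were higher in experiment 2, where Ccnd3 was lower. Spermatid-marked cells themselves hold Ccnd3, as given below with the shares of cells, and the part of this RNA in the difference between BU and CTRL, and in the share of D cyclin UMIs that Ccnd3 takes, was not tested. Ccnd3 was lower in Kit+ cells than in Gfra1+ cells (log2 fold change -0.40, adjusted p = 0.0113) and than in Sox3+ cells (-0.46, adjusted p = 0.0234). The call against Gfra1+ cells was lost without BU 1 and without BU 2. It was also lost with cells of more than 1 class left out and with classes from thinned cells.

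**Figure D1:**
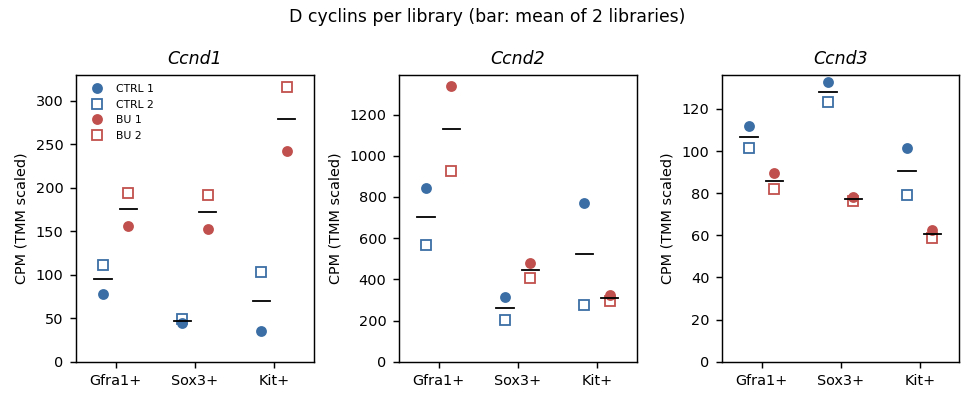
Level of Ccnd1, Ccnd2 and Ccnd3 in CPM after TMM scaling (linear axes from 0) in Gfra1+, Sox3+ and Kit+ cells. Each point is 1 library, filled circles are experiment 1, open squares are experiment 2, blue is CTRL, red is BU and black bars are means of 2 libraries. Ccnd1 reaches 242 and 316 CPM in the Kit+ cells of BU, while Ccnd2 is highest in Gfra1+ cells.

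The mix of D cyclins was set on 1 depth by thinning every cell at random to 5000 UMIs and leaving out shallower cells. UMIs read from the 3' end count molecules and were not scaled by transcript length, and capture can differ between genes. In Gfra1+ cells Ccnd2 made up 82.8% and 75.0% of the D cyclin UMIs in CTRL and 84.9% and 78.0% in BU. In Sox3+ cells Ccnd1 made up 9.24% and 11.7% in CTRL and 20.9% and 30.4% in BU, while Ccnd3 made up 25.6% and 32.3% in CTRL and 11.6% and 13.6% in BU. In Kit+ cells the share of Ccnd1 was 4.32% and 23.5% in CTRL and 39.5% and 57.8% in BU. Each of these groups of libraries was apart from the other for Ccnd1 and Ccnd3 in Sox3+ cells and for Ccnd1 in Kit+ cells, where CTRL rests on 162 and 98 D cyclin UMIs. Among Gfra1+ cells, 5.58% and 3.83% had no D cyclin UMI at this depth in CTRL and 0.945% and 1.91% in BU. Among Sox3+ cells the values were 25.8% and 27.6% in CTRL and 12.8% and 13.9% in BU.

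**Figure D2:**
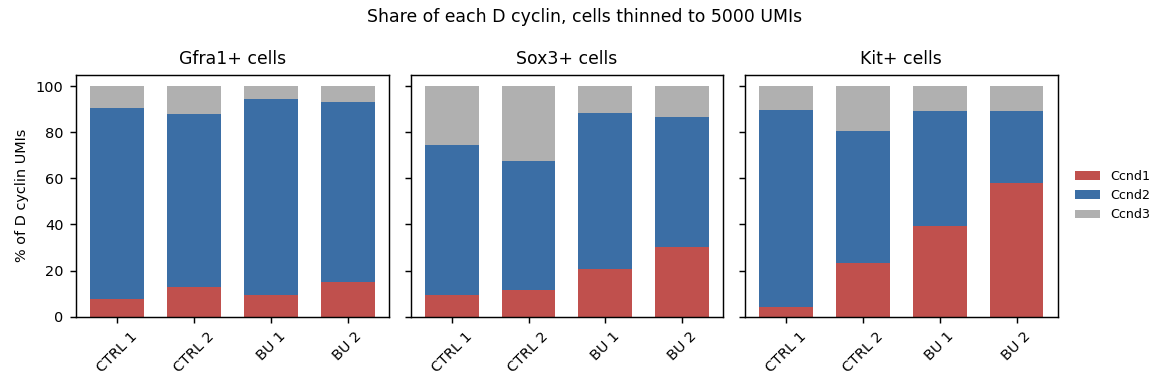
Share of the D cyclin UMIs (%, from 0 to 100) that came from Ccnd1 (red), Ccnd2 (blue) and Ccnd3 (grey) in each library, in cells thinned to 5000 UMIs. Ccnd2 takes 75.0% to 84.9% in Gfra1+ cells, and Ccnd1 takes 57.8% in the Kit+ cells of BU 2.

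Cdk6 was the member that differed most between Gfra1+ cells and either other class. Its level in Gfra1+ cells was 18.5 and 16.1 CPM in CTRL and 4.37 and 7.61 CPM in BU. In Sox3+ cells it was 61.2 and 50.0 CPM in CTRL and 41.7 and 30.1 CPM in BU, and in Kit+ cells 116 and 66.3 CPM in CTRL and 54.5 and 41.3 CPM in BU. Every library had the order Gfra1+, Sox3+, Kit+ from low to high. With cells of more than 1 class left out, the Kit+ level of CTRL 2, then from 15 cells, was below its Sox3+ level. The order held in the other libraries. Cdk6 was higher in Sox3+ than in Gfra1+ cells by 2.05 on the log2 scale (SE 0.20, adjusted p = 3.4e-05) and in Kit+ than in Gfra1+ cells by 2.59 (SE 0.22, adjusted p = 1.76e-05). The step from Sox3+ to Kit+ cells, 0.54 (SE 0.20), did not pass the test (adjusted p = 0.104).

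Cdk4, the other partner of the D cyclins, was far more level. It was 461 and 275 CPM in CTRL and 461 and 351 CPM in BU in Gfra1+ cells, and 527 and 306 CPM against 382 and 301 CPM in Sox3+ cells. In Kit+ cells it was 379 and 154 CPM in CTRL and 272 and 209 CPM in BU. Libraries of experiment 1 were above those of experiment 2 in each class and group. Cdk4 was lower in Kit+ cells than in Gfra1+ cells (log2 fold change -0.67, SE 0.11, adjusted p = 0.000817) and than in Sox3+ cells (-0.63, SE 0.11, adjusted p = 0.00732). Cdk6 UMIs were 0.949% to 5.87% of the Cdk4 level in Gfra1+ cells, 9.99% to 16.3% in Sox3+ cells and 19.7% to 43.0% in Kit+ cells.

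Cdkn1b differed more between experiments than between groups. In Sox3+ cells it was 15.1 CPM in CTRL 1 and 78.8 CPM in CTRL 2, and 12.5 and 22.1 CPM in BU. In Gfra1+ cells it was 6.31 and 35.1 CPM in CTRL and 16.0 and 23.4 CPM in BU, and the groups overlapped in both classes. Kit+ cells were the lowest, at 8.96 and 9.25 CPM in CTRL and 5.27 and 9.15 CPM in BU, on 3 to 79 UMIs per library. Cdkn1b was lower in Kit+ cells than in Gfra1+ cells (log2 fold change -1.36, SE 0.33, adjusted p = 0.00834) and than in Sox3+ cells (-1.86, SE 0.34, adjusted p = 0.00869). Both calls were lost with classes from thinned cells. In CTRL 1 the Kit+ level was 1.42 times the Gfra1+ level, unlike in the other 3 libraries.

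Rb1, the target of the D cyclin kinases, was 23.9 to 69.1 CPM over the 12 sums. Its highest value was that of Sox3+ cells in CTRL 2, and its groups overlapped in every class. It was higher in Sox3+ than in Gfra1+ cells by 0.36 on the log2 scale (SE 0.11, adjusted p = 0.0405), a call that was lost without CTRL 1, without CTRL 2 or without BU 2, in DESeq2, with classes from thinned cells and without the library as a block.

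**Figure D3:**
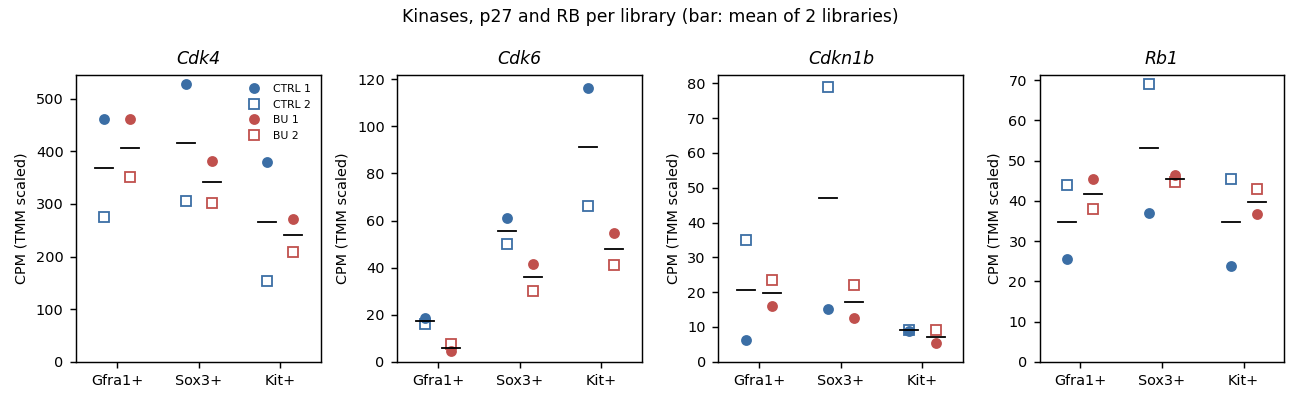
Level of Cdk4, Cdk6, Cdkn1b and Rb1 in CPM after TMM scaling (linear axes from 0) in Gfra1+, Sox3+ and Kit+ cells. Each point is 1 library, with circles for experiment 1, squares for experiment 2, blue for CTRL and red for BU, and bars are means of 2 libraries. Cdk6 rises from Gfra1+ to Kit+ cells in all 4 libraries, and Cdkn1b of CTRL 2 stands at 78.8 CPM in Sox3+ cells.

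The E cyclins and Cdc25a were low in CTRL. Ccne1 in Sox3+ cells was 8.77 and 8.49 CPM in CTRL and 22.8 and 28.8 CPM in BU, and in Gfra1+ cells 13.7 and 17.8 CPM against 29.8 and 26.7 CPM. Ccne2 in Sox3+ cells was 10.5 and 20.02 CPM in CTRL and 36.1 and 45.3 CPM in BU. Cdc25a in Sox3+ cells was 28.9 and 40.2 CPM in CTRL and 90.9 and 81.0 CPM in BU. For each of the 3 genes the BU libraries were above the CTRL libraries in Gfra1+ and in Sox3+ cells. In Gfra1+ cells Ccne2 was 11.4 and 24.0 CPM in CTRL and 28.6 and 26.4 CPM in BU. Among Gfra1+ cells with Top2a or Mki67 above the class level, Ccne2 and Cdc25a overlapped. Their ratios of BU to CTRL were 1.79 and 0.835, and 1.94 and 0.975. Ccne1 did not overlap there, nor did any of the 3 in the other Gfra1+ cells. With cells of more than 1 class left out, Ccne2 overlapped in Gfra1+ cells. In Kit+ cells Ccne2 overlapped (17.9 and 57.8 CPM in CTRL, 51.0 and 72.3 CPM in BU). Cdc25a overlapped there once the cells marked as somatic or spermatid were left out (ratios 2.39 and 0.893).

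Across classes, Ccne2 was higher in Kit+ cells than in Gfra1+ cells by 1.12 on the log2 scale (SE 0.19, adjusted p = 0.000875) and Cdc25a by 0.42 (SE 0.15, adjusted p = 0.0415). This call of Cdc25a was lost without CTRL 1, without BU 1 and without BU 2. It was also lost with cells of more than 1 class left out and with classes from thinned cells. Against Sox3+ cells, the Kit+ cells were higher in Ccnd1 (0.76, adjusted p = 0.0419), Ccne1 (0.75, adjusted p = 0.0409), Ccne2 (0.89, adjusted p = 0.0157) and Cdc25a (0.57, adjusted p = 0.0357). For Ccnd1 the ratio of Kit+ to Sox3+ cells was 0.799 and 2.12 in CTRL and 1.59 and 1.64 in BU, so CTRL 1 went the other way. In that comparison 7.95% of genes were called, 1.84% higher and 6.11% lower, and 4 and 3 of the 10 members. These calls are close to the threshold. Without CTRL 1 or without BU 1 only Cdk4 and Cdkn1b were called, without BU 2 these and Ccne2, without CTRL 2 these, Ccne2, Ccnd1 and Ccnd3, and only Cdk4 with classes drawn from cells thinned to 5000 UMIs. With the cells marked as somatic or spermatid left out, which removes 5 of 37 Kit+ cells of CTRL 2, 8 members were called, and with exclusive classes 6. Without the library as a block, Cdk6 alone was called between Gfra1+ cells and either other class, and no member between Kit+ and Sox3+ cells.

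The comparison of BU with CTRL asked which members changed in cells of the same class during regeneration. With condition as the only term, edgeR (quasi-likelihood, p adjusted by Benjamini and Hochberg's method) called 0 genes in any class (0% of 13632, 14445 and 11030 genes tested in Gfra1+, Sox3+ and Kit+ cells). At an unadjusted p under 0.05 it held 583, 2028 and 909 genes, and DESeq2 called 15, 328 and 46. The labels place the libraries in experiments that shared a kit and a sequencing lane, so the experiment was also fitted as a block, and both fits are given for each class.

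In Sox3+ cells, 5 members rose with the experiment as a block. Ccnd1 had a log2 fold change of 1.90 (SE 0.17, adjusted p = 0.0176) and was 3.40 and 3.94 times higher in BU than in CTRL in experiments 1 and 2. Ccne1 rose by 1.60 (SE 0.22, adjusted p = 0.0283), with ratios of 2.60 and 3.39. Ccne2 rose by 1.48 (SE 0.24, adjusted p = 0.0342) and Cdc25a by 1.35 (SE 0.23, adjusted p = 0.0355). Ccnd2 rose by 0.83 (SE 0.15, adjusted p = 0.0375). This fit called 5.69% of genes, 2.58% higher and 3.11% lower, and 0 of the 10 members was called lower. Ccnd3 had a change of -0.71 (adjusted p = 0.0591), Cdk6 of -0.62 (adjusted p = 0.0954) and Cdkn1b of -1.12 (adjusted p = 0.132).

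The Sox3+ cells of BU held more cells that were also Kit+, 134 of 473 and 86 of 264, than those of CTRL, 24 of 1470 and 20 of 646. The share that was also Gfra1+ was larger in BU too, 100 of 473 and 57 of 264, against 150 of 1470 and 78 of 646 in CTRL. The 5 differentiating markers summed to 644 and 367 CPM in the Sox3+ cells of CTRL and to 782 and 533 CPM in those of BU. With cells of more than 1 class left out and the experiment as a block, an alternative chosen after the data had been seen, 2 of the 5 were called, Ccnd1 (1.51, adjusted p = 0.0107) and Ccnd2 (1.00, adjusted p = 0.0393). Ccne1 (1.34, adjusted p = 0.0545), Cdc25a (1.17, adjusted p = 0.0611) and Ccne2 (0.89, adjusted p = 0.193) were not. In these cells Ccne2 was 10.5 and 17.6 CPM in CTRL and 26.1 and 24.0 CPM in BU, Ccnd1 was 2.96 and 2.59 times higher in BU than in CTRL in experiments 1 and 2, and the levels of BU and CTRL still did not overlap for any of the 5.

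Without the block, the same 5 members of Sox3+ cells had log2 fold changes of 0.80 to 1.90 and adjusted p of 0.19 to 0.299. DESeq2 without the block called Ccnd1, Ccne1 and Cdc25a. With 1 library left out, a group holds 1 library, and none of the 5 members was called in each of these fits. The change of Cdkn1b then ranged from -2.18 to 0.21. The levels of BU and CTRL did not overlap for 7 of 10 members, where 46.2% of all genes did not overlap. BU was the higher in 5 members (23.0% of all genes) and the lower in 2 (23.2%).

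In Kit+ cells, Ccnd1 rose with the block by 1.88 (SE 0.34, adjusted p = 0.0253), in a fit that called 0.952% of genes, 0.109% higher and 0.843% lower. Its ratios of BU to CTRL were 6.76 and 3.06, and without the cells marked as somatic or spermatid the levels were 34.5 and 119 CPM in CTRL and 239 and 308 CPM in BU. Without the block its change was 1.76 (adjusted p = 0.505). Cdk6 had a change of -1.02 with the block (adjusted p = 0.15) and no other member passed. The levels did not overlap for 5 members, against 39.6% of all genes, with BU higher in 3 (24.9%) and lower in 2 (14.7%).

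In Gfra1+ cells no member passed either fit. With the block, which called 0.0660% of genes, 0.0367% higher and 0.0293% lower, Ccnd1 had a change of 0.89 (SE 0.20, adjusted p = 0.13), Ccnd2 of 0.68 (SE 0.20, adjusted p = 0.208) and Cdk6 of -1.54 (SE 0.33, adjusted p = 0.114). The Cdk6 level of BU was 0.236 and 0.471 of that of CTRL in experiments 1 and 2, on 39 and 175 UMIs in BU and 88 and 115 in CTRL. With cells of more than 1 class left out, Cdk6 was 5.85 and 10.02 CPM in CTRL and 3.47 and 5.62 CPM in BU, so that the ratios were 0.593 and 0.561 and the change with the block was -0.80 (adjusted p = 0.441). Levels did not overlap for 7 members, against 32.1% of all genes, with BU higher in 5 (16.2%) and lower in 2 (15.9%).

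**Figure D4:**
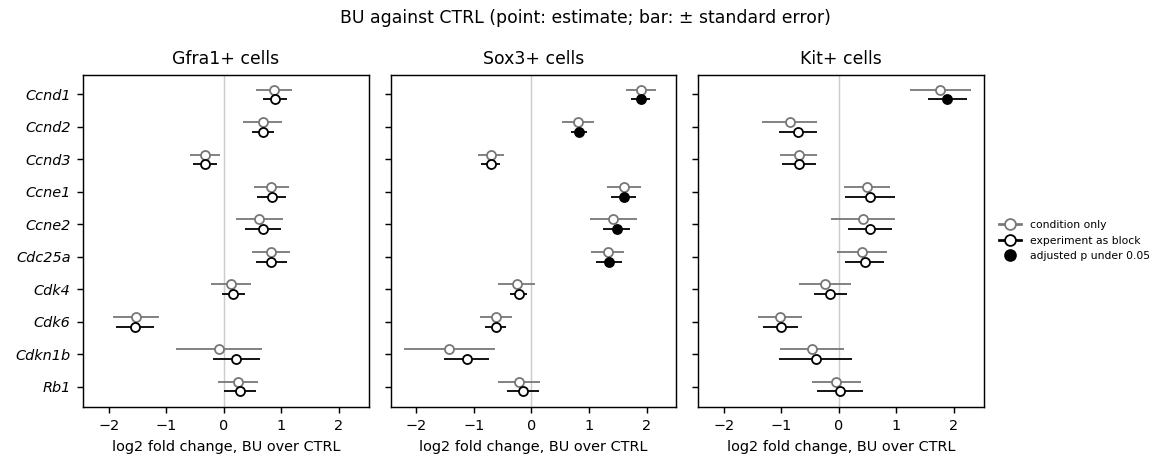
Log2 fold change of BU over CTRL of the 10 members in the 3 classes, with condition as the only term (grey) and with the experiment as a block (black). Points are estimates from edgeR, bars are ± 1 standard error, and filled points have an adjusted p under 0.05. Filled points are Ccnd1, Ccnd2, Ccne1, Ccne2 and Cdc25a in Sox3+ cells and Ccnd1 in Kit+ cells.

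Whether a change differed between classes was tested as an interaction over the 12 sums. The change of Ccnd1 was larger in Sox3+ than in Gfra1+ cells by 0.99 on the log2 scale (SE 0.17, adjusted p = 0.0168) and larger in Kit+ than in Gfra1+ cells by 0.90 (SE 0.22, adjusted p = 0.0482). The change of Ccnd2 was lower in Kit+ than in Gfra1+ cells by a difference of -1.25 (SE 0.24, adjusted p = 0.0195). The change of Cdkn1b was lower in Sox3+ than in Gfra1+ cells by a difference of -1.35 (SE 0.20, adjusted p = 0.0087). The comparison of Sox3+ with Gfra1+ cells called 1.81% of genes, 0.945% higher and 0.863% lower, and that of Kit+ with Gfra1+ cells 3.35%, 0.917% higher and 2.43% lower. None of the 4 was called without BU 1 or without BU 2, or with exclusive classes. In DESeq2 neither Ccnd1 nor Cdkn1b was called between Sox3+ and Gfra1+ cells, where the 1 member called was Cdk4, and Ccnd2 alone was called between Kit+ and Gfra1+ cells, as with RLE scaling. With classes from thinned cells Cdkn1b was no longer called. Without the cells marked as somatic or spermatid, 9 members differed between Sox3+ and Gfra1+ cells, all but Ccnd2, while Ccnd1 was no longer called between Kit+ and Gfra1+ cells.

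Cells with Top2a or Mki67 above the class level, genes that are expressed in late S, G2 and M phase, are called cycling here and were compared with the other Gfra1+ cells of the same library. Ccne1 was 22.2, 26.4, 32.6 and 28.6 CPM in the cycling cells of CTRL 1, CTRL 2, BU 1 and BU 2, and 5.36, 6.50, 12.03 and 14.4 CPM in the others. It was higher in cycling cells by 1.51 on the log2 scale (SE 0.20, adjusted p = 0.000842). Cdc25a was higher by 1.30 (SE 0.14, adjusted p = 0.000234) and Ccne2 by 0.85 (SE 0.18, adjusted p = 0.0101). These 3 were called under each alternative and without each library. They are cell cycle genes, as are Top2a and Mki67, so these calls are close to how the cells were chosen. Cycling cells were also deeper, with median UMIs of 9389 and 30027.5 in CTRL and 10905 and 45264 in BU. The medians of the other Gfra1+ cells were 6449.5 and 24736.5 in CTRL and 8477 and 24425 in BU. Ccnd1 (0.24, adjusted p = 0.0393) and Cdk4 (0.18, adjusted p = 0.0325) were also called, where 24.2% of genes were called, 11.3% higher and 12.9% lower. Ccnd2 (0.15, adjusted p = 0.235), Ccnd3 (0.05, adjusted p = 0.692), Cdk6 (-0.29, adjusted p = 0.281) and Cdkn1b (0.10, adjusted p = 0.788) were not. The call of Ccnd1 was lost without CTRL 2, without BU 1, without shared barcodes, in DESeq2 and with exclusive classes. That of Cdk4 was lost without CTRL 1, without CTRL 2, without BU 1, with classes from thinned cells and with the cells marked as somatic or spermatid left out.

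Among Gfra1+ cells with Top2a and Mki67 both at or below the class level, which can still hold UMIs of them in experiment 2, the level of Ccnd2 was 814 and 463 CPM in CTRL and 1322 and 934 CPM in BU. Of these non-cycling cells, 321 of 326 and 88 of 98 in CTRL were marked neither as somatic nor as spermatid. In BU these were 173 of 181 and 107 of 141. The part of the marked cells in the change with the block was not tested. With the block, Ccnd2 rose by 0.87 on the log2 scale (SE 0.19, adjusted p = 0.000938), in a fit that called 2.13% of genes, 1.23% higher and 0.898% lower. It was the 1 member called there, with a change of 0.84 and an adjusted p of 1 without the block. Cdk6 was 20.99 and 17.5 CPM in CTRL and 4.43 and 9.94 CPM in BU (log2 fold change -1.33, adjusted p = 0.0654 with the block), on 7 and 38 UMIs in BU. In the cycling Gfra1+ cells the Ccnd2 levels of BU and CTRL overlapped, with ratios of BU to CTRL of 1.42 and 1.38.

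**Figure D5:**
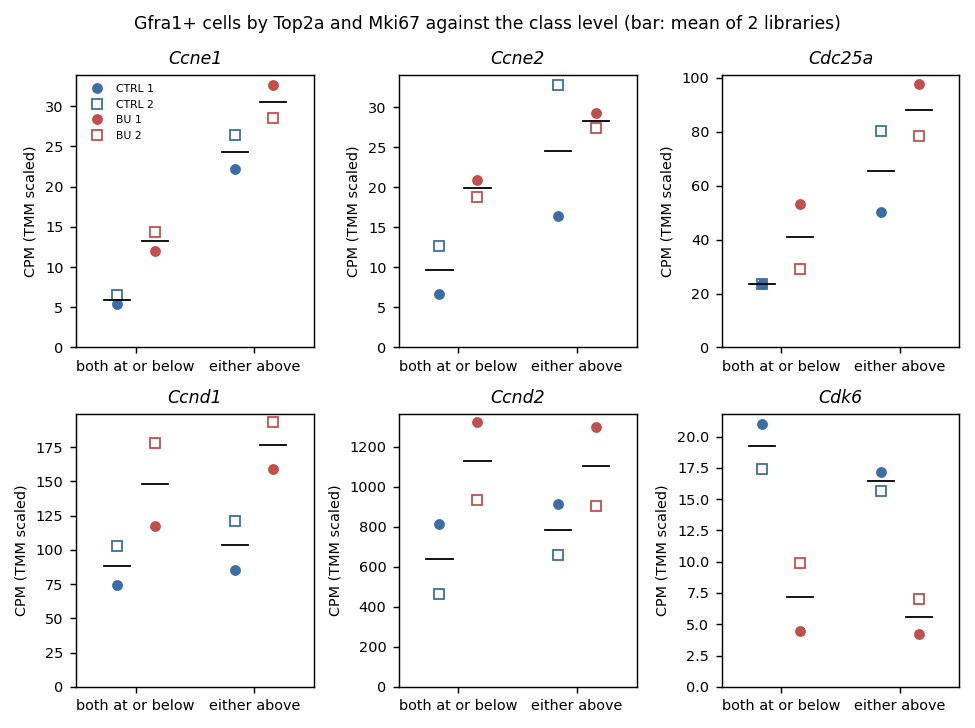
Level in CPM after TMM scaling (linear axes from 0) of 6 members in Gfra1+ cells with Top2a and Mki67 at or below the class level and with either above it. Each point is 1 library (circles experiment 1, squares experiment 2, blue CTRL, red BU) and bars are means of 2 libraries. Ccne1, Ccne2 and Cdc25a are higher in the cells above it in every library. The means of Ccnd2 and Cdk6 differ more between CTRL and BU than between the 2 kinds of cells. For Ccnd2, single libraries of CTRL and BU overlap in the cells above it.

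The share of cells with at least 1 UMI of a gene was taken at 5000 UMIs per cell. In Sox3+ cells Ccnd1 was seen in 18.3% and 17.9% of cells in CTRL and 41.8% and 47.9% in BU. Cdk6 was seen in 6.92% and 7.18% of Gfra1+ cells in CTRL and 2.24% and 2.67% in BU. Free RNA was gauged in spermatid-marked cells of no class. Ccnd1 was seen in 1 of 34 of them in CTRL 1, 4 of 81 in CTRL 2, 2 of 7 in BU 1 and 3 of 54 in BU 2, with median depths of 11872, 29712, 16091 and 35406 UMIs before thinning against 8066 to 34177 over all cells. The 7 cells of BU 1 are too few to set a background there. Cdk6 was seen in 3 of 34 such cells of CTRL 1 (8.82%) and 1 of 81 of CTRL 2 (1.23%). Its share of Gfra1+ cells was thus below that of spermatid-marked cells in CTRL 1 (6.92%) and above it in CTRL 2 (7.18%). With 3 of 34 cells, the value of CTRL 1 is too imprecise to place its Gfra1+ share above or at background. In BU the spermatid-marked cells held Cdk6 in 0 of 7 and 0 of 54. Ccnd3 was seen in 44.1%, 35.8%, 14.3% and 29.6% of the spermatid-marked cells of CTRL 1, CTRL 2, BU 1 and BU 2. In Gfra1+ cells it was seen in 38.5%, 39.2%, 34.7% and 30.2%. Spermatid-marked cells can hold Ccnd3 RNA of their own, so for this gene they set no background. Whether its share of Gfra1+ cells lies above free RNA cannot be told from them. The groups did not overlap for 6, 7 and 7 of 10 members in Gfra1+, Sox3+ and Kit+ cells, or 20 of 30 pairs of member and class. BU was the higher in 4, 5 and 3 members and the lower in 2, 2 and 4. Among genes seen in a mean of at least 1% of cells, 30.3%, 41.6% and 35.3% did not overlap. BU was the higher in 11.9%, 23.5% and 18.4% of these genes and the lower in 18.4%, 18.1% and 16.9%. Without thinning, 3 of 30 pairs had no overlap. An exact two-sided permutation test over the 6 assignments of 4 libraries cannot go below p = 0.333, which the 20 pairs reached.

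The other genes of the pathway are given as counts. Of 6 other CDK inhibitors, 1 rose in BU with the block in Gfra1+ cells (0.0367% of all genes) and in Sox3+ cells (2.58%) and none was called in Kit+ cells. This was Cdkn1a (p21), a p53 target that blocks CDK2: 28.6 and 17.3 CPM in CTRL against 107 and 130 CPM in BU in Gfra1+ cells (log2 fold change 2.40, SE 0.29, adjusted p = 0.0285). Cdkn1a was also higher in cycling than in non-cycling Gfra1+ cells (1.01, adjusted p = 0.00287). Of 12 pocket proteins and E2F factors, only E2f8, a repressive E2F, rose in Sox3+ cells with the block (1.95, adjusted p = 0.0282). Of the 12 tested among 13 regulators of synthesis and turnover of these proteins, Mycl was the 1 called in that fit, and it was lower in BU (3.11% of all genes). Of 14 S phase genes known as E2F targets, 6 rose in Sox3+ cells with the block (2.58% of all genes), with a median log2 fold change over the list of 0.78 against 0.03 over all genes. In cycling against non-cycling Gfra1+ cells all 14 of them and all 8 mitotic genes were called higher (11.3% of all genes). For both lists this is close to how the cells were chosen, since Top2a and Mki67 are expressed in late S, G2 and M phase.

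Over the 12 sums, among 6778 genes with a mean of at least 20 CPM, the pattern of Ccnd1 was most like those of Smc1b (Pearson's r 0.970), Tpx2 (0.963) and Ncbp3 (0.962). That of Ccnd2 was most like those of Itgb5 (0.963), Ppm1j (0.953) and Lrp10 (0.948). Ccnd3 was most like Ssh1 (0.961), H2afy (0.958) and Pfdn5 (0.957), and Cdkn1b most like Snx9 (0.951), Naa15 (0.943) and Senp6 (0.926). Among the members, Ccne1 and Cdc25a (0.923), Ccne2 and Cdc25a (0.925), and Ccnd1 and Ccne1 (0.861) varied together, while Ccnd3 varied against Ccne1 (-0.929) and Ccnd1 (-0.881). Ccnd1 and Ccnd2 did so hardly at all (0.04). These are descriptions over sums that share 4 libraries and their depths.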

How the data were processed

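The 4 single-cell libraries analysed were CTRL 1, CTRL 2, BU 1 and BU 2. The deposited values are UMI counts per gene and cell barcode, which the authors made with Cell Ranger (3.0.2 in the matrix headers) from 10x Single Cell 3' libraries. The study's methods name mm10, while the submitters' processing notes name another mouse build and Seurat 3.2. The labels give kit version 2 for experiment 1 and 3.1 for experiment 2, while the study's methods name version 2 for all libraries. UMIs per library were 21136369 to 53579969.

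Genes were joined over the libraries by gene ID, members and markers were looked up by symbol, and UMIs were summed per library and cell class. Fits used edgeR 4.0.16 in R 4.3.3 (quasi-likelihood, TMM scaling, filterByExpr, adjusted p under 0.05 over all genes tested). BU and CTRL were compared with condition as the only term and, as an alternative, with the experiment as a replicate block. Comparisons between classes had the library as a block. The labels tie each CTRL library to a BU library by experiment, kit and lane, and deviations of libraries of 1 experiment correlated at 0.664, 0.615 and 0.490 in Gfra1+, Sox3+ and Kit+ cells. With pooled mice, no p-value measures the spread between single mice. With condition as the only term, p-values rest on the spread between libraries. With a block, they rest on the spread left once the experiment or library is fitted, over classes that share cells where classes were compared. The fit of BU against CTRL with the block has 4 libraries per class. It therefore leaves few residual degrees of freedom and leans on variance estimates shared over genes. Doublets were scored with Scrublet, and the 132 cells (1.76%) of highest score in their libraries were marked. Their number was set beforehand by an assumed rate of 0.8% per 1000 cells. Scrublet's own threshold marked 15 cells (0.200%), which is too few to show that it worked. The 132 cells were therefore kept in the main fits and left out in an alternative.

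The members and gene lists were chosen with earlier results of these data known. All 10 members were named, with up to 3 genes per pathway list by lowest adjusted p and the 3 genes most like Ccnd1, Ccnd2, Ccnd3 and Cdkn1b. Alternatives were RLE scaling, DESeq2 1.42.0, no filter, exclusive classes, classes from thinned cells, other cell types left out, doublets left out and each library left out. Leaving out shared barcodes, and exclusive classes together with the replicate block, were added after the data had been seen. The fits were tested on simulated data.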

Additional observations from a re-analysis of the deposited data

Results flagged for a closer look

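For 4 results the change from CTRL to BU differed between classes in a test of the difference itself. The change of Ccnd1 was larger by 0.99 on the log2 scale in Sox3+ than in Gfra1+ cells and by 0.90 in Kit+ than in Gfra1+ cells. The change of Ccnd2 differed by -1.25 between Kit+ and Gfra1+ cells, and that of Cdkn1b by -1.35 between Sox3+ and Gfra1+ cells. The Kit+ values rest on 36 and 37 cells in CTRL, and the Cdkn1b value on libraries that differed by experiment (15.1 and 78.8 CPM in the Sox3+ cells of CTRL). The part of these in the differences was not tested. In DESeq2 only the difference for Ccnd2 was called among these 4, and with exclusive classes none was.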

How the results depend on the processing

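Under the alternatives, called members kept their call in 248 of 329 cases, lost it in 81 and changed direction in 0. Uncalled members kept their side in 844 of 959 cases, passed the threshold in 52 and changed direction in 63. The causes were not tested, other than that leaving out a library leaves fewer samples.

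For BU against CTRL, no member was called with condition alone. With the replicate block, 5 members were called in Sox3+ cells, 1 in Kit+ cells and 1 in non-cycling Gfra1+ cells, and it changed no other call of a member. With the replicate block and exclusive classes together, an alternative added after the data had been seen, 2 were called in Sox3+ cells (Ccnd1 and Ccnd2), 1 in Kit+ cells (Ccnd1) and 0 in Gfra1+ cells, among 187, 269 and 79 genes. The exclusive Kit+ class held only 10 and 15 cells in CTRL. With no filter on low counts, 3 were called in Sox3+ and 1 in Kit+ cells, and DESeq2 called 3 in Sox3+ cells. With 1 library left out, a group holds 1 library, and in no class was a member called in each of these fits. Genes called went from 0 to 9, 822, 105 and 247 with the block (Gfra1+, Sox3+, Kit+, non-cycling), to 15, 328, 46 and 6 in DESeq2 and to 50, 363, 564 and 20 with no filter.

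Between classes, 7 members were called for Kit+ against Gfra1+ cells, but 1 without the replicate block, 4 with classes from thinned cells and 5 to 8 without 1 library. For Kit+ against Sox3+ cells 7 became 0 without the block, 1 with thinned classes and 2 to 5 without 1 library. For Sox3+ against Gfra1+ cells 3 became 1 without the block, 6 with exclusive classes, 5 with other cell types left out and 2 to 3 without 1 library. Genes called fell without the block from 4911 to 1391, from 1170 to 6 and from 3062 to 704. With exclusive classes they were 3069, 1908 and 1795. With thinned classes they were 264 for Kit+ against Sox3+ and 1728 for Sox3+ against Gfra1+ cells. For Kit+ against Sox3+ cells they were 1984 with no filter and 2518 with other cell types left out. Cycling against non-cycling cells called 5 members, 3 to 5 without 1 library, and 3066 genes (DESeq2 1800).

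For the difference of the BU change between Kit+ and Gfra1+ cells, 2 members became 1 with RLE scaling, 1 in DESeq2, 1 with other cell types left out, 0 with exclusive classes and 0 to 2 without 1 library. Between Sox3+ and Gfra1+ cells, 2 became 1 in DESeq2 (Cdk4, neither of the 2), 5 with no filter, 0 with exclusive classes, 1 with thinned classes, 9 with other cell types left out and 0 to 5 without 1 library. Genes called, 493 and 266, were 316 (Kit+, DESeq2), 1276 and 865 (no filter), 937 and 16 (thinned classes), 253 and 1692 (other cell types left out) and 5 (Sox3+, exclusive classes). Without thinning, 3 of 30 pairs of member and class had no overlap in shares, against 20 with thinning.

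The changes of direction were all of members that had not been called, given here as log2 differences. With the replicate block, Cdkn1b in Gfra1+ cells was 0.22 and Rb1 in Kit+ cells 0.021 for BU against CTRL. With the block and exclusive classes together they were 0.51 and 0.012. With no filter, Rb1 was 0.14 in Kit+ cells for BU against CTRL and -0.034 for Kit+ against Gfra1+ cells, and the BU change between Kit+ and Gfra1+ cells was 0.031 for Ccne2 and 0.0034 for Rb1. With exclusive classes, Cdkn1b in Gfra1+ cells was 0.23 for BU against CTRL, Rb1 was -0.038 for Kit+ against Gfra1+, Ccnd2 -0.21 for Kit+ against Sox3+, and Ccne2 -0.22 and Cdk4 0.083 for Sox3+ against Gfra1+ cells. In the same classes the difference of the BU change was 0.93 for Ccne1, 0.33 for Ccne2 and -0.81 for Cdkn1b between Kit+ and Gfra1+ cells, and -0.35 for Cdk6 between Sox3+ and Gfra1+ cells. With thinned classes, Rb1 was -0.10 in non-cycling cells and -0.11 for Kit+ against Gfra1+, Ccnd3 was -0.0085 for cycling cells, and the BU change between Kit+ and Gfra1+ cells was 0.23 for Ccne2 and 0.034 for Rb1. That of Ccne2 was 0.031 with doublets left out. Without shared barcodes Rb1 was -0.025 for Kit+ against Gfra1+ cells, and the BU change was 0.13 for Ccne2 and -0.53 for Cdkn1b, the latter -0.15 in DESeq2. With other cell types left out, Cdk6 was 0.34 for cycling cells.

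Leaving out 1 library moved these members across 0. For BU against CTRL in Gfra1+ cells, the range was Cdk4 -0.20 to 0.56, Cdkn1b -0.82 to 1.64 and Rb1 -0.074 to 0.69. For BU against CTRL in Kit+ cells, the range was Ccnd2 -1.31 to 0.064, Cdk4 -0.65 to 0.55 and Rb1 -0.28 to 0.75. For BU against CTRL in Sox3+ cells, the range was Cdk4 -0.63 to 0.15, Cdkn1b -2.18 to 0.21 and Rb1 -0.62 to 0.29. For BU against CTRL in non-cycling Gfra1+ cells, the range was Cdk4 -0.25 to 0.48, Cdkn1b -1.64 to 1.19 and Rb1 -0.12 to 0.48. For the BU change in Kit+ against Gfra1+ cells it was Ccne2 -0.35 to 0.59, Cdc25a -0.45 to 0.11, Cdk4 -0.45 to 0.040, Cdkn1b -1.91 to 0.46 and Rb1 -0.30 to 0.12. In Sox3+ against Gfra1+ cells it was Ccnd2 -0.019 to 0.26. Between classes it was, for Kit+ against Gfra1+ cells, Rb1 -0.11 to 0.13. For Kit+ against Sox3+ cells it was Ccnd2 -0.20 to 0.42. For Sox3+ against Gfra1+ cells it was Ccnd3 -0.017 to 0.14, Ccne2 -0.0099 to 0.45 and Cdk4 -0.10 to 0.043. For cycling against non-cycling Gfra1+ cells it was Cdkn1b -0.13 to 0.39.
The Kit+ cells of CTRL 1 are 36 in number, and Cdkn1b rests there on 3 UMIs and Ccnd1 on 12.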
